A study of Mus musculus with 3 samples.

Results

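The heterogeneous nuclear ribonucleoprotein (hnRNP) family was examined here as 10 genes, Hnrnpa1, Hnrnpa2b1, Hnrnpab, Hnrnpc, Hnrnpd, Hnrnph1, Hnrnpk, Hnrnpl, Hnrnpm and Hnrnpu, of the 26887 gene entries listed in 3 tables of read counts. The rows of the members were taken by gene symbol, and all 10 were found in every table. The 3 tables came from RNA interactome analysis and sequencing (RIA-seq), in which antisense oligonucleotides, collected on streptavidin beads, pull a chosen RNA with whatever is held to it out of fixed cell lysate. The cells were undifferentiated mouse E14 embryonic stem (ES) cells of the 129/Ola strain, a single line grown without feeder cells, and all were fixed with glutaraldehyde and sonicated before capture. Oligonucleotides against Actb, the mRNA of a cytoskeletal actin, gave the control library (Actb RIA-seq), those against Malat1, a long noncoding RNA of the nucleus, gave Malat1 RIA-seq, and those against Tfrc, the mRNA of the transferrin receptor, gave Tfrc RIA-seq. Each condition had 1 library and no untreated or input RNA was analysed here, so no value below has a replicate check, and a test on the reads can only compare these libraries, not the conditions.

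hnRNP proteins coat nascent transcripts in the nucleus and take part in the splicing, export, translation and decay of mRNAs. Most of them bind RNA through RNA recognition motifs or KH domains, and many also bind and regulate their own transcripts or those of other family members. What was measured here was the RNA of the hnRNP genes recovered with each captured RNA, not the proteins and not the RNAs that the proteins bind.

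The authors deposited raw counts, with up to 2 counts for a gene in a library. The Ensembl-ID count is listed under the Ensembl identifier of the gene and the Genome count under the reference name Genome, and what separates them is not given in the sources used here. The totals were 10405209 counts in the Actb library, 10078439 in the Malat1 library and 14553941 in the Tfrc library. The 3 libraries differed in makeup as well as depth. The 10 genes with the most counts held 52.7% of the Actb library, 23.6% of the Malat1 library and 33.4% of the Tfrc library. Genome counts were 5.25%, 19.0% and 15.1% of all counts in the same order. The captured RNAs were counted in every library. Actb was at 73038, 889 and 924 counts per 1000000, Malat1 at 1834, 10657 and 7041, and Tfrc at 43.5, 101 and 117. Tfrc was thus only slightly higher in its own library than in the Malat1 library. All 8 ES cell markers (Pou5f1, Nanog and others) were counted in each library, at a summed 3037 to 4248 per 1000000. The 6 fibroblast markers summed to 18.9 to 21.9 and the 6 markers of differentiated lineages to 8.17 to 18.7 per 1000000, with Col3a1, S100a4 and Afp at 0 in the Actb library and Postn at 0 in the Malat1 library.

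The members do not all have sequence of their own, and for Hnrnpa1 this bears on every value. Of the 832 windows of 32 bases in its merged exons, 742 (89.2%) also occur elsewhere in the mouse genome (build NCBIM37), and 11 places hold at least 100 of them each. Of these places 6 carry an annotated copy of 1 or 2 exons. Gm10052 on chr9 holds 700 of the windows (84.1%), Gm7729 on chr18 holds 649 (78.0%), Gm5643 on chrX holds 531 (63.8%) and Gm16216 on chr19 holds 436 (52.4%). A read that lies within such a window cannot be told apart between Hnrnpa1 and the copy. The read length is not given in the sources used here, and 32 bases were taken to stand for a short read. Windows lay within exons, so longer reads and reads across exon junctions were not assessed.

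The other members were less affected. The share of 32-base exon windows found elsewhere was 51.6% for Hnrnpk, 38.1% for Hnrnpc, 10.8% for Hnrnpa2b1 and 8.67% for Hnrnph1. It was 2.94% for Hnrnpab, 1.84% for Hnrnpl, 0.198% for Hnrnpd, 0.0933% for Hnrnpu and 0.0472% for Hnrnpm. How the authors treated reads with several matches is not given in the sources used here, so the counts of Hnrnpa1, Hnrnpk and Hnrnpc are the least certain of the 10.

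**Figure D1:**
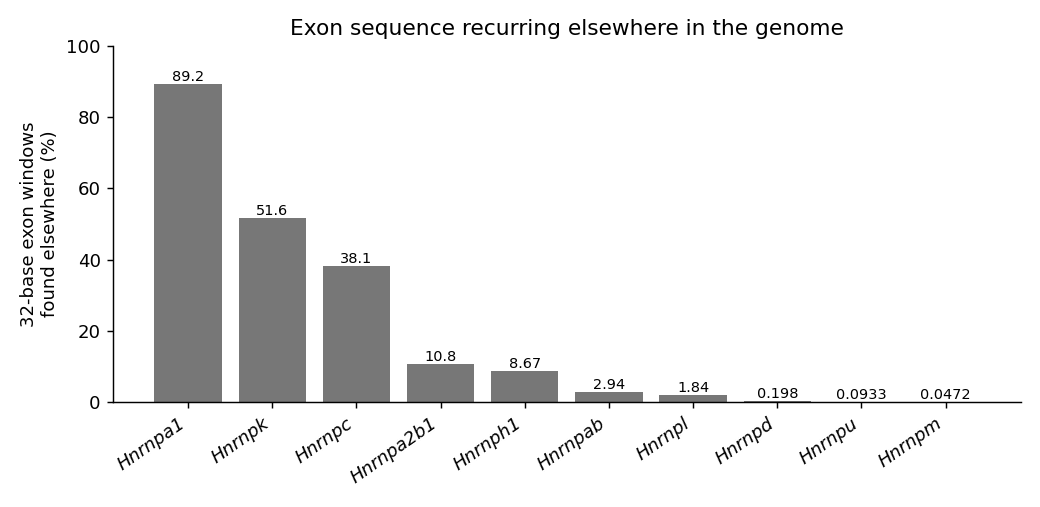
Percent of the 32-base windows of each member's merged exons that also occur elsewhere in genome build NCBIM37, 1 bar per gene. Hnrnpa1 (89.2%), Hnrnpk (51.6%) and Hnrnpc (38.1%) stand above the other 7 members, which are at 10.8% or less.

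The 10 genes together took 27633 counts in the Actb library, 33987 in the Malat1 library and 48392 in the Tfrc library. This is 2656 counts per 1000000 (95% Wilson interval 2625 to 2687), 3372 (3337 to 3408) and 3325 (3296 to 3355). All intervals cover counting error only and treat reads as independent. PCR reads without molecular identifiers are not independent molecules, so the intervals can be too narrow even for counting error. Variation between libraries is not covered, since no condition had a replicate. Hnrnpa2b1 was the largest contributor in every library, with 22.9%, 24.9% and 25.9% of the family's counts, and Hnrnpa1 the smallest, with 2.14%, 1.79% and 1.69%. Levels per kb of merged exon adjust for length. The divisor joins the exons of all annotated transcripts, so the order of genes depends on the annotation. By this measure Hnrnpa2b1 again had the highest Ensembl-ID level (143, 195 and 198 counts per 1000000 and kb). Hnrnpk and Hnrnpab followed, at 123 and 120 in the Actb library with overlapping intervals (119 to 127 and 117 to 124), 125 and 105 in the Malat1 library and 132 and 125 in the Tfrc library, where the intervals overlapped once more. Hnrnpm was lowest in each library, at 25.2, 30.8 and 30.0. In the Actb library its interval (23.8 to 26.7) overlapped that of Hnrnph1 (24.4 to 27.0), so the last place was not resolved there. The first 4 places of this order, Hnrnpa2b1, Hnrnpk, Hnrnpab and Hnrnpu, were held by the same genes in all 3 libraries.

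**Figure D2:**
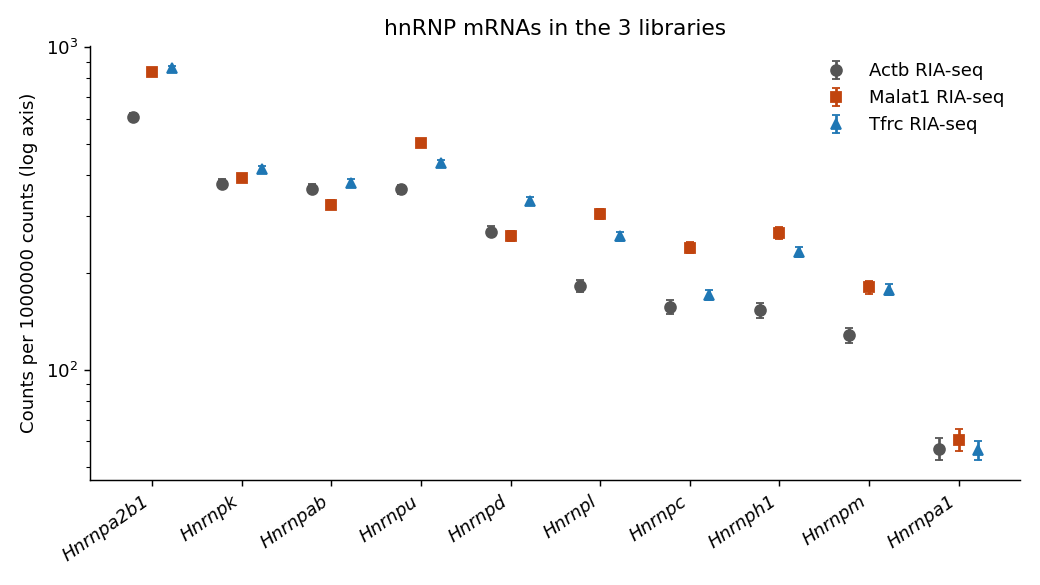
Counts per 1000000 counts of the library (log axis) for the 10 hnRNP genes, with 1 point per library and bars for 95% Wilson intervals, which cover counting error only. Hnrnpa2b1 is highest in each library (608, 840 and 861) and Hnrnpa1 lowest (56.8, 60.5 and 56.2), and the direction between libraries depends on the scaling given in the text.

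The Malat1 library and the Tfrc library were each set against the Actb library, the control the study chose, to ask whether hnRNP RNA was recovered with Malat1 or Tfrc more than with Actb. No member was 2-fold higher in either comparison. On library totals the median member had a fold of 1.39 in the Malat1 library (range 0.892 to 1.74) and of 1.22 in the Tfrc library (0.990 to 1.52), but the median of all genes tested was 1.82 and 1.56, a shift of 0.86 and 0.64 on the log2 scale. Relative to that median gene the median member was at 0.762 and 0.786, so the direction of the family turned with the scaling. All 10 members lay below this median gene in both comparisons, but 2 and 3 lay above it on Ensembl-ID counts alone, against the medians of those counts (1.41 and 1.26). These comparisons share the Actb library, and a low or high share there enters both.

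Of all genes past a minimum of 10 counts in each of the compared libraries, 42.1% were at least 2-fold higher in the Malat1 library and 28.6% in the Tfrc library, against 0 of the 10 members in each. Genes with many counts had lower folds. At a minimum of 500 counts in each, near the lowest count of a member, the shares were 25.9% and 8.56% and the median folds 1.53 and 1.26. Against this second background the members' median of 1.39 and 1.22 was again lower, but 2 members lay above its median in the Malat1 library (Hnrnph1 and Hnrnpl) and 4 in the Tfrc library (the same genes, Hnrnpa2b1 and Hnrnpm). Folds below 1 were seen for 2 of 10 members in the Malat1 library (Hnrnpab and Hnrnpd; 11.3% of all genes) and for 1 in the Tfrc library (Hnrnpa1; 12.8%). The 95% counting interval lay above 1 for 6 members in the Malat1 library (74.6% of all genes) and for 9 in the Tfrc library (69.4%). It lay below 1 for 1 member, Hnrnpab, in the Malat1 library (4.66% of all genes) and for none in the Tfrc library (3.88%).

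The summed member counts had a fold of 1.27 (95% counting interval 1.25 to 1.29) in the Malat1 library and 1.25 (1.23 to 1.27) in the Tfrc library on library totals, which became 0.698 and 0.803 when the median gene was set to 1. Leaving out single members moved the first from 1.24 (without Hnrnpa2b1) to 1.33 (without Hnrnpab) and the second from 1.20 to 1.29 for the same genes. No single member therefore decided the family value. Between the Malat1 library and the Tfrc library the summed fold was 1.01 (1.00 to 1.03), against a median gene of 1.15.

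**Figure D3:**
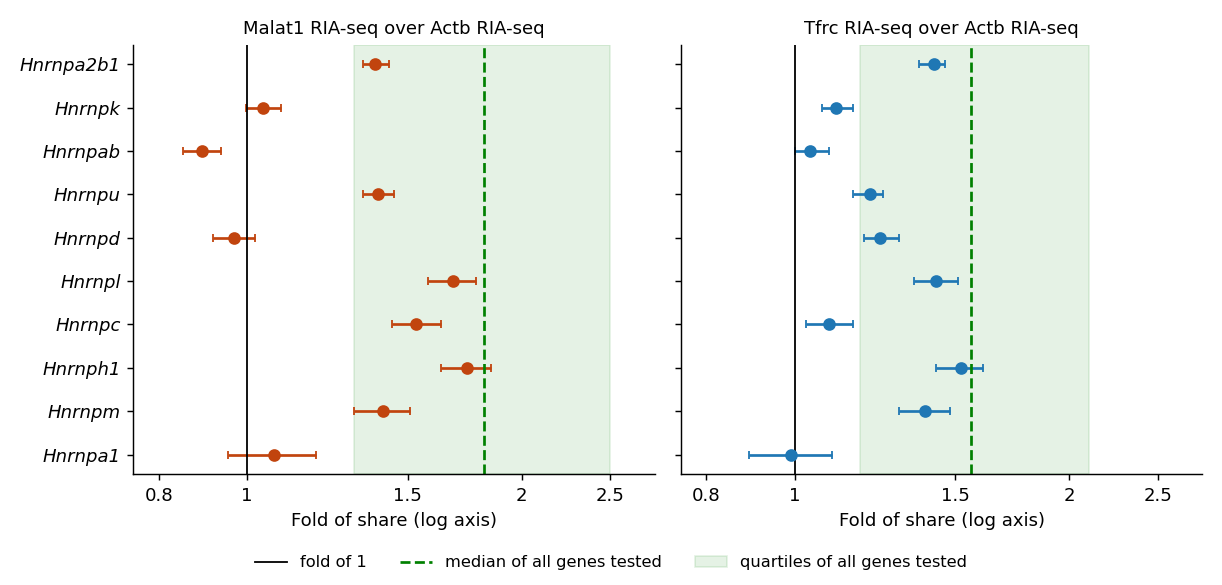
Fold of each member's share of the library total (log axis) in the Malat1 library (left) and the Tfrc library (right) over the Actb library, with bars for 95% counting intervals. The dashed line is the median of all genes tested (1.82 and 1.56) and the band their quartiles, and all 10 members lie left of the line, so that those right of the black line (fold of 1) on library totals fall below 1 relative to the median gene.

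In the A/B type group, whose proteins carry a pair of RNA recognition motifs, Hnrnpa2b1 (chr6:51410433-51419893) is known for RNA transport and alternative splicing. It had 6329 counts in the Actb library, 8463 in the Malat1 library and 12528 in the Tfrc library, or 608, 840 and 861 per 1000000. The Actb library was the low library and the other two had overlapping intervals (822 to 858 and 846 to 876). On library totals the folds were 1.38 (1.34 to 1.43) and 1.42 (1.37 to 1.46), which are 0.759 and 0.908 of the median gene.

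Hnrnpa1 (chr15:103070945-103074445), a repressor of exon inclusion, had 591, 610 and 818 counts, or 56.8, 60.5 and 56.2 per 1000000 in the 3 libraries in that order. The 3 intervals overlapped, and the folds were 1.07 (0.952 to 1.19) and 0.990 (0.890 to 1.10), or 0.586 and 0.635 of the median gene. Its 6 annotated copies together had 644, 506 and 666 counts. Gm10052 alone had 278, 253 and 303, Gm7729 had 114, 75 and 135, Gm5643 had 61, 58 and 67, and Gm16216 had 129, 83 and 108. With the copies added, which was an analysis chosen after seeing the data, the folds of Hnrnpa1 were 0.933 (0.860 to 1.01) and 0.859 (0.797 to 0.926). In the Malat1 library the intervals with and without the copies both included 1, so no direction was shown there.

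Hnrnpab (chr11:51412372-51420349) encodes a binder of single-stranded nucleic acid that acts in mRNA transport and transcription. It had 3785, 3271 and 5526 counts, or 364, 325 and 380 per 1000000, with the Malat1 library as the low library on library totals. Its fold in the Malat1 library, 0.892 (0.851 to 0.935), was the lowest of the family, while that in the Tfrc library was 1.04 (1.00 to 1.09). Both were below 1 relative to the median gene, at 0.490 and 0.670. Within the family, where the scaling of the libraries cancels, it held 13.7% of member counts in the Actb library, 9.62% in the Malat1 library and 11.4% in the Tfrc library. Its exons share 809 bases with Agxt2l2 on the opposite strand (345, 791 and 1092 counts), and reads of the pair can be told apart only where strand was used, which is not given in the sources used here.

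Hnrnpd (chr5:100387445-100407957), also known as AUF1, binds AU-rich elements and promotes the decay of many mRNAs. It had 2792, 2619 and 4858 counts, or 268, 260 and 334 per 1000000, and stood highest in the Tfrc library on library totals. The folds were 0.968 (0.918 to 1.02) in the Malat1 library and 1.24 (1.19 to 1.30) in the Tfrc library, and 0.779 (0.742 to 0.816) between the Malat1 and Tfrc libraries, the lowest of the 10 in that comparison. Relative to the median gene the folds over the Actb library were 0.532 and 0.798, both below 1. It overlaps 385 exon bases of Gm17092 on the opposite strand, which had only 44, 84 and 96 counts.

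Hnrnpc (chr14:52693055-52723703) encodes a strictly nuclear protein of the hnRNP core particle that binds uridine tracts. It had 1626, 2409 and 2482 counts, or 156, 239 and 171 per 1000000, with the Malat1 library above the other libraries on library totals. The folds were 1.53 (1.44 to 1.63) over the Actb library, 0.840 of the median gene, and 1.40 (1.33 to 1.48) over the Tfrc library, where it lay above the median gene at 1.22 times its fold. In the Tfrc library over the Actb library the fold was 1.09 (1.03 to 1.16), or 0.700 of the median gene. Over the Actb library the Genome counts differed more than the Ensembl-ID counts, as given below, while over the Tfrc library the Malat1 library had folds of 1.37 (1.29 to 1.47) on Ensembl-ID counts and 1.48 (1.33 to 1.65) on Genome counts.

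Hnrnph1 (chr11:50190492-50200030) encodes a splicing factor that binds runs of guanine. It had 1590, 2674 and 3375 counts, or 153, 265 and 232 per 1000000, with the Actb library the low library. Its folds of 1.74 (1.63 to 1.85) and 1.52 (1.43 to 1.61) were the highest of the family in both comparisons, yet were 0.954 and 0.973 of the median gene, whose value lay within both intervals.

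Hnrnpl (chr7:29593560-29607285), whose protein binds CA-rich RNA in splicing, had 1889, 3068 and 3766 counts, or 182, 304 and 259 per 1000000. The folds were 1.68 (1.58 to 1.78) and 1.43 (1.35 to 1.51), next below those of Hnrnph1, and 0.921 and 0.914 of the median gene. Hnrnph1 and Hnrnpl, both lowest in the Actb library on library totals, held more of the family's counts in the target libraries. The shares were 5.75%, 7.87% and 6.97% for Hnrnph1 and 6.84%, 9.03% and 7.78% for Hnrnpl.

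Hnrnpm (chr17:33783178-33823805), a splicing regulator that prefers GU-rich RNA, had 1332, 1818 and 2582 counts, or 128, 180 and 177 per 1000000. The Malat1 and Tfrc libraries did not differ beyond their intervals (172 to 189 and 171 to 184), and the folds over the Actb library were 1.41 (1.31 to 1.51) and 1.39 (1.30 to 1.48), or 0.774 and 0.889 of the median gene. Its exons share 1169 bases with March2 on the same strand (80, 182 and 143 counts), so reads there cannot be assigned to a single gene from sequence.

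Hnrnpu (chr1:180253205-180267928), or scaffold attachment factor A, binds both chromatin and RNA and helps to keep long noncoding RNAs on chromosomes. It had 3775, 5095 and 6364 counts, or 363, 506 and 437 per 1000000, and the 3 intervals did not overlap. The folds were 1.39 (1.34 to 1.45) and 1.21 (1.16 to 1.25), or 0.766 and 0.773 of the median gene. It shares 267 exon bases with Gm16586 on the same strand (121, 329 and 432 counts).

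Hnrnpk (chr13:58492503-58504704) encodes a KH domain protein that binds C-rich RNA and DNA. It had 3924, 3960 and 6093 counts, or 377, 393 and 419 per 1000000, a narrow spread. The folds were 1.04 (0.997 to 1.09) and 1.11 (1.07 to 1.16), or 0.572 and 0.712 of the median gene. Its longest copy, Gm7964 on chr7, had 244, 268 and 264 counts, and adding these gave folds of 1.05 and 1.09. An intron of Hnrnpk holds Mir7-1 (chr13:58494140-58494247, minus strand), which yields miR-7a-5p, a microRNA of neurons and endocrine cells. Its mature sequence (RefSeq, GRCm38.p6) is shown with the seed, bases 2 to 8, in capitals because this is the only miRNA gene listed inside a member.
mmu-miR-7a-5p: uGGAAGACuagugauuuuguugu
Mir7-1 had 0, 1 and 1 counts in the 3 libraries in that order. These are below the floor of 3 counts, so no difference was detectable at this depth.

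Between the Malat1 library and the Tfrc library no member was 2-fold different upward (4.35% of all genes were). Of the 10 members 4 had a fold below 1 (32.1% of all genes), with the interval below 1 for 3 of them (11.9%), Hnrnpab, Hnrnpd and Hnrnpk. The interval lay above 1 for 4 members (39.5% of all genes), Hnrnpc, Hnrnph1, Hnrnpl and Hnrnpu. The median member was at 1.05 on library totals and 0.908 of the median gene. With Genome counts alone 1 member, Hnrnpab, was at least 2-fold higher (2.18, 1.53 to 3.11, on 77 and 51 counts), as were 9.86% of all genes. Most members went the other way on these counts. Their median fold was 0.895 against 1.28 for all genes tested, and 6 of 10 members were below 1, beside 2757 of 11544 genes.

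The Genome counts of the members differed more between libraries than the Ensembl-ID counts did. Summed over the members they were 984 in the Actb library, 2925 in the Malat1 library and 4026 in the Tfrc library, folds of 3.07 (2.86 to 3.30) and 2.93 (2.73 to 3.14). The Ensembl-ID counts were 26649, 31062 and 44366, folds of 1.20 (1.18 to 1.22) and 1.19 (1.17 to 1.21). With Genome counts alone, 8 of 10 members were at least 2-fold higher in each comparison, against 88.6% and 79.6% of all genes, and with Ensembl-ID counts 0 members were, against 24.0% and 14.1%. The 2 members below 2-fold were Hnrnpa2b1 (1.91, 1.61 to 2.27) and Hnrnpk (1.87, 1.48 to 2.37) in the Malat1 library, and Hnrnpa1 (1.72, 1.23 to 2.40) and Hnrnpab (1.66, 1.01 to 2.73) in the Tfrc library. Genome counts were thus higher for most genes of these libraries, and the members' shares lay near or below those of all genes.

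**Figure D4:**
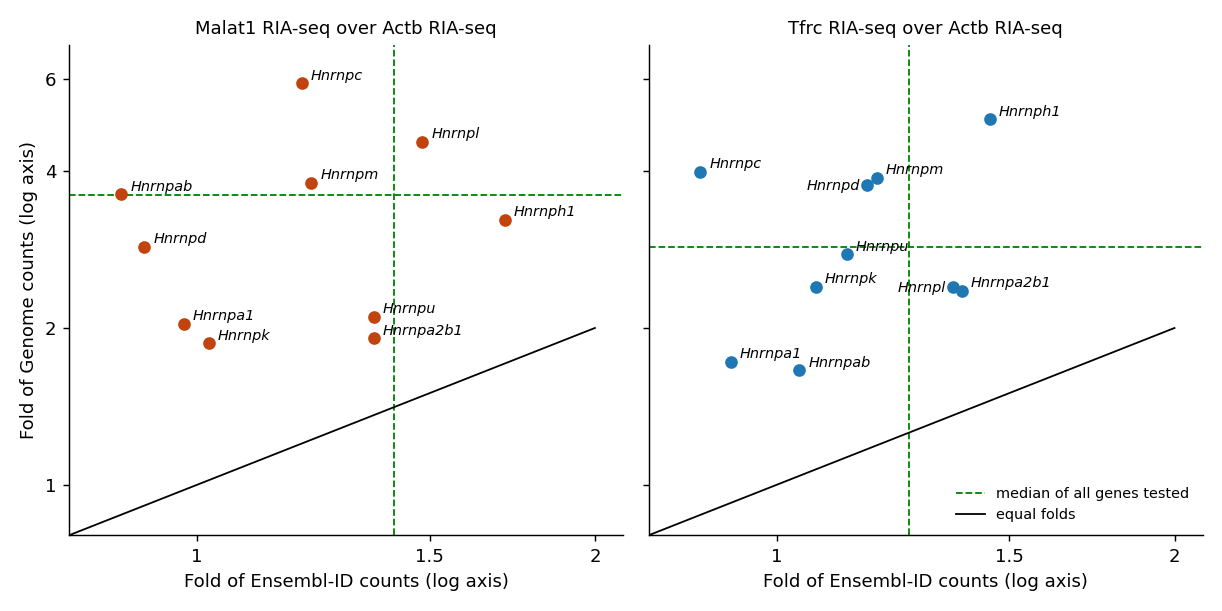
Fold of the Genome counts against fold of the Ensembl-ID counts (both log axes, shares of the library total) for the 10 members in the Malat1 library (left) and the Tfrc library (right) over the Actb library. Every member lies above the line of equal folds, and Hnrnpc in the Malat1 library has the highest Genome fold (5.90) beside an Ensembl-ID fold of 1.20.

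The percent of a gene's counts that were Genome counts does not depend on how the libraries are scaled. Over the family it was 3.56% (95% Wilson interval 3.35 to 3.79) in the Actb library, 8.61% (8.31 to 8.91) in the Malat1 library and 8.32% (8.08 to 8.57) in the Tfrc library, below the 5.26%, 19.1% and 15.1% of all other genes. Among the 1959 genes with introns and at least 500 counts in each library the median was 5.80%, 15.3% and 12.8%, and 4, 4 and 3 members lay above it. All 10 members had a higher percent in the Malat1 library than in the Actb library with intervals that did not overlap (81.5% of those genes), and 9 did in the Tfrc library (79.6%), where Hnrnpab was the exception. Most genes behaved alike, so these counts say little about the family itself.

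Members differed widely among themselves. Hnrnpc went from 6.95% in the Actb library to 26.8% in the Malat1 library and 25.4% in the Tfrc library, the highest of the family in both target libraries. Between the Actb and Malat1 libraries its Genome counts went from 113 to 646 while its Ensembl-ID counts went from 1513 to 1763. In the Tfrc library its Ensembl-ID fold was below 1, at 0.875 (0.818 to 0.937), beside a Genome fold of 3.99 (3.26 to 4.87). Hnrnpm followed, at 7.28%, 19.6% and 20.4%, and Hnrnpa1, at 8.29%, 15.9% and 14.4%. These 3 were the members with the highest percent in the Tfrc library.

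Hnrnpl had a higher Genome percent in the Malat1 library than in the others, at 6.35%, 17.3% (16.0 to 18.7) and 10.7% (9.73 to 11.7), with a Genome fold of 4.56 (3.74 to 5.56) over the Actb library and 1.90 (1.67 to 2.17) over the Tfrc library. Hnrnph1 and Hnrnpu went the other way, as did Hnrnpa2b1 by less. Hnrnph1 had 1.95%, 3.63% (2.98 to 4.41) and 6.46% (5.68 to 7.34), and Hnrnpu had 4.34%, 6.54% (5.89 to 7.25) and 9.98% (9.27 to 10.7), both highest in the Tfrc library. Hnrnpa2b1 had 3.18%, 4.40% (3.98 to 4.85) and 5.29% (4.91 to 5.70). Hnrnpk leaned the same way, but its intervals in the target libraries overlapped (4.22 to 5.56 and 5.28 to 6.46). Hnrnpab had the lowest percent in each library, at 0.581%, 2.35% (1.89 to 2.93) and 0.923% (0.703 to 1.21), on only 22, 77 and 51 Genome counts, and the largest ratio of the Malat1 to the Tfrc library, 2.55 against 1.62 for Hnrnpl. The remaining members, Hnrnpa2b1, Hnrnpd and Hnrnpk, ranged from 2.70% to 3.18% in the Actb library and from 4.40% to 8.79% in the target libraries. Over the 1959 genes with introns the median was 15.3% in the Malat1 library and 12.8% in the Tfrc library. How many of those genes differed beyond their intervals between these libraries was not counted, so these differences are not read as particular to the members.

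**Figure D5:**
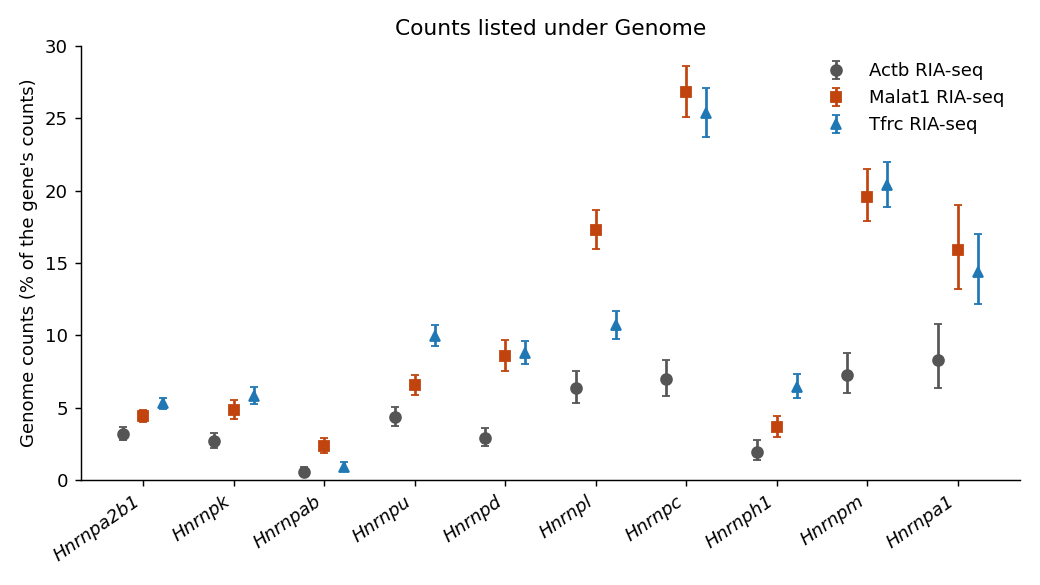
Genome counts as a percent of all counts of each member, with 1 point per library and bars for 95% Wilson intervals. Hnrnpc is highest in the Malat1 library (26.8%) and the Tfrc library (25.4%), Hnrnpab is lowest in each library, and Hnrnpl has the widest gap in percentage points between the Malat1 library (17.3%) and the Tfrc library (10.7%).

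The intron length of the members was set beside their Genome percent. Spearman's rho between merged intron length and Genome percent over the 10 members was 0.25 in the Actb library, 0.60 in the Malat1 library and 0.44 in the Tfrc library, given as a description since the points share their libraries. Hnrnpm has the most intron sequence (35919 nt), then Hnrnpc (27806 nt), and Hnrnpa1 the least (2375 nt) with a Genome percent among the highest. For Genome counts per kb of intron, rho with intron length was negative, at -0.60, -0.58 and -0.42. Intron length is the divisor of that value, so a negative rho can arise from the division alone and is not read further. Whether Genome counts lie in introns is not given in the sources used here.

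The wider family was described by a list of 18 other genes, all counted at least 10 times in each library. Their median folds, 1.44 in the Malat1 library and 1.25 in the Tfrc library, were near those of the members, 1.39 and 1.22. In each comparison 2 of the 18 were at least 2-fold higher, fewer than the 42.1% and 28.6% of all genes. Both times the 2 genes were Rbmx and Hnrpdl. Rbmx (chrX:54636707-54646213), the gene of hnRNP G, had 35, 166 and 128 counts, or 3.36, 16.5 and 8.79 per 1000000. Its folds were 4.90 (3.40 to 7.05) and 2.61 (1.80 to 3.80), or 2.69 and 1.68 of the median gene. Hnrpdl (chr5:100462596-100468683), a close relative of Hnrnpd, had 712, 1866 and 2097 counts, or 68.4, 185 and 144 per 1000000. Its folds were 2.71 (2.48 to 2.95) and 2.11 (1.93 to 2.29), or 1.49 and 1.35 of the median gene, so it was under 2-fold relative to the median gene in both comparisons. Its Genome percent was 16.6%, 38.2% and 30.6%, above that of each member.

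The next highest were Hnrnph2, the paralogue of Hnrnph1, in the Malat1 library, with a fold of 1.85 (1.56 to 2.20), and Hnrnpul1, a relative of Hnrnpu, in the Tfrc library, with 1.69 (1.59 to 1.79). The lowest in the Malat1 library were Pcbp1 at 1.01 (0.926 to 1.10), Syncrip at 1.03 (0.964 to 1.11) and Ptbp1 at 1.06 (1.02 to 1.11). The C-rich RNA binder Pcbp1 and the polypyrimidine tract binder Ptbp1 lay near Hnrnpk in that comparison. In the Tfrc library the lowest were Hnrnpa0 at 1.04 (0.950 to 1.14), Hnrnpf at 1.06 (1.01 to 1.12) and Hnrpll at 1.08 (0.963 to 1.20). Shared sequence limits some of these genes too. The share of exon windows found elsewhere was 73.6% for Hnrnpf, 40.4% for Hnrnph2, 23.1% for Syncrip and 22.6% for Ptbp1. It was 10.8% for Pcbp1, 10.2% for Hnrnpul1 and 0 for Hnrnpa0 and Hnrpll. Among the other hnRNP genes it was highest for Hnrnpa3, at 87.7%. The counts of Hnrnpf and Hnrnph2 therefore carry the same limit as those of Hnrnpk and Hnrnpc.

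The SR proteins, the other large family of splicing regulators, gave a comparison outside the hnRNPs. Of 11 genes listed, the 10 with enough counts had a median fold of 1.56 in the Malat1 library and 1.46 in the Tfrc library, above the hnRNP members. The SR medians lay below the median of all genes tested (1.82 and 1.56) but above that of genes with 500 or more counts (1.53 and 1.26). In the Malat1 library 2 of them were at least 2-fold higher (42.1% of all genes), and in the Tfrc library none was (28.6%). Whether the families differed was not tested, since genes are not replicates of a condition.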

How the data were processed

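RIA-seq reads of 3 libraries of E14 ES cells, 1 per condition, were analysed from tables of whole-number counts. The authors deposited raw counts per gene and reference without normalization, with only genes that had a read in the table. The submitters' processing notes name Bowtie 0.12.7 and the builds mm9 and NCBIM37, and the counting rule is not given in the sources used here. Annotation came from GENCODE for NCBIM37 (Ensembl release 65), which holds 98.6% of the 23854 identifiers.

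Both kinds of count were summed per gene name and chromosome and divided by the library total, and folds are ratios of these shares with a pseudocount of 0 and a 95% counting interval on the log scale. Shares have Wilson intervals. The minimum was 10 counts in both libraries and a call was a fold of at least 2. The floor of 3 counts was 0.206 to 0.298 per 1000000. Genes named were the 10 members, the 3 highest and 3 lowest other hnRNP genes per comparison over Actb RIA-seq, the targets, and genes sharing sequence or position with a member. Lars2 was named for its share of the library totals, and Hnrnpa3 for its shared windows. The members and lists were chosen with earlier results of these data known. Windows of 32 bases of the exons were searched for in the genome, and an exon sequence comparison is not reported here. Alternatives were other scalings, a pseudocount of 1, Ensembl-ID or Genome counts only, other minimums and a chi-square test of the reads of 2 libraries. A minimum of 500 counts, the copy search and counts with copies added were chosen after seeing the data. Computations were tested on simulated counts. Scripts ran in Python 3.11.15 with pandas 2.3.3, numpy 2.4.6 and scipy 1.17.1, and plots were drawn with matplotlib 3.10.9.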

Additional observations from a re-analysis of the deposited data

How the results depend on the processing

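The 0 members at least 2-fold higher held under all 3 other scalings, a pseudocount of 1, Ensembl-ID counts and added copies, and became 8, 8 and 1 in Malat1 over Actb, Tfrc over Actb and Malat1 over Tfrc with Genome counts over the library total, beside 88.6%, 79.6% and 9.86% of all genes. In the same order, the median member fold was 0.762, 0.786 and 0.908 with the median ratio over genes, 0.775, 0.788 and 0.903 with the 75th percentile, 0.858, 0.869 and 0.913 without the 10 genes with the most counts, 0.840, 0.899 and 0.710 with Genome counts over the Genome total, and 3.04, 2.58 and 0.895 with Genome counts over the library total. The fold of the summed counts was 0.698, 0.803 and 0.879, then 0.709, 0.806 and 0.875, then 0.786, 0.889 and 0.884, then 0.847, 1.02 and 0.832, and then 3.07, 2.93 and 1.05 in the same order of settings. With Ensembl-ID counts over the Ensembl-ID total, the summed fold was 1.41, 1.33 and 1.06 and the median in Tfrc over Actb was 1.28. At that setting Hnrnph1 in Malat1 over Actb was at 2.00 after rounding, just under the 2-fold rule. Over the library total, Ensembl-ID counts gave medians of 1.21 and 1.15 and summed folds of 1.20 and 1.19 over Actb RIA-seq. These scalings set different genes to a fold of 1, and which is right was not tested. Copies were added only at places with an annotated gene. For Hnrnpc the annotated copy had 0 counts and the place with the most windows (797) had no annotated gene. Its fold therefore could not change with added copies. The share of all genes at least 2-fold higher was 37.6%, 20.8% and 2.36% at a minimum of 50 counts and 46.6%, 36.3% and 9.13% above 0. An adjusted chi-square test, which compares the reads of 2 libraries and not the conditions, had 6, 8 and 4 members higher, beside 73.9%, 68.0% and 35.8% of all genes. No paired analysis was possible because each condition had 1 library, and low counts limit Mir7-1 and the Genome counts of single members, such as the 22 of Hnrnpab in the Actb library.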
